A study of Medicago truncatula with 4 samples.

Results

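Non-specific lipid transfer proteins (nsLTPs) are small, secreted, cysteine-rich proteins of land plants, in which disulfide bridges hold a fold with an inner cavity for fatty acids and other lipids. Members of the family are known for their parts in the deposition of cutin, wax and suberin, in defence, and in reproductive and symbiotic organs, and in carrot an extracellular lipid transfer protein is a known marker of embryogenic cell cultures. Here the family was taken from the deposited annotation of *M. truncatula*, as every gene whose symbol begins with MtnsLTP or whose description contains the words lipid transfer protein. This rule found 117 of the 52709 genes in the count table, 116 by symbol and 1, *MtHEL-1*;*MtnsLTP28*, by its description alone.

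The libraries were made from polyA RNA of calli, that is, of dividing cell masses grown from leaf explants of the R108 line. In 2 libraries the calli came from wildtype R108 plants, and in the other 2 from R108 plants carrying a pMDC32 insertion with the coding sequence of the transcription factor gene *MtWOX9-1*, a vector that drives its insert from a constitutive viral promoter. All plants spent 35 days in soil, and all explants then spent 30 days on modified PCI-4 medium with the auxin 2,4-D at 18 μM and the cytokinin BAP at 2.22 μM and 5 days on that medium without hormones, so that every callus was 35 days old. The number of transgenic lines behind the overexpressing calli and the number of calli per library are not given in the sources used here. The labels call the samples biological replicates without saying what separated them, so the p-values measure the spread between these 4 libraries.

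The libraries held between 5241334 and 6666866 counts, and a gene with 0 counts could still have had up to between 0.45 and 0.57 CPM (counts scaled to the same total in every library), with 3 counts as the limit (counting error only). Replicates differed by more than sampling noise in both groups, the chi-square over its degrees of freedom being 6.80 for the wildtype and 7.71 for the overexpressing pair. *MtWOX9-1* (MtrunA17Chr2g0283141, listed in the deposited annotation as *MtWOX9b*) was nearly absent from wildtype replicates 1 and 2 (2 and 18 counts) and abundant in overexpressing replicates 1 and 2 (7692 and 7634 counts), as the labels say. In edgeR's quasi-likelihood test, two-sided and with Benjamini-Hochberg adjustment over all 24630 genes with at least 10 counts in total, 20.3% of the genes were higher and 18.9% were lower in overexpressing calli at an adjusted p under 0.05.

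Most of the family had few or no counts in calli of either kind. Of the 117 genes, 67 had 0 counts in every library (57.3%, against 39.8% of all genes), and a further 12 had between 1 and 9 counts in total and were not tested. These 12 were *MtnsLTP33*, *MtnsLTP57*, *MtnsLTP59*, *MtnsLTP79*, *MtnsLTP90*, *MtnsLTP92*, *MtnsLTP94*, *MtnsLTP102*, *MtnsLTP110*, *MtnsLTP111*, *MtnsLTP114* and *MtnsLTP120*. The remaining 38 genes were tested. The gene IDs belong to an annotation of the A17 line, whereas the calli were of R108. The handling of reads that map to several places is not given either. Whether the genes with 0 counts were unexpressed, or their reads were missed, was not tested.

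The expression level of most tested lipid transfer protein genes differed between wildtype and *MtWOX9-1*-overexpressing calli, in both directions. Of the 38, 13 genes rose (34.2%, against 20.3% of all genes tested), 19 fell (50%, against 18.9%) and 6 did not pass the test. The median log2 fold change of overexpressing over wildtype calli was -1.46 for the tested family members and 0.04 for all genes tested. With genes at 0 counts in both libraries of a group set to their lower bound against 3 counts, 24 tested members (63.2%) had an absolute log2 fold change over 2, against 15.0% of all genes tested, and 16 (42.1%) had one over 4, against 3.01%. The median absolute log2 fold change on this basis was 3.33 for the tested members and 0.62 for all genes. Of the tested members, *MtnsLTP5*, *MtnsLTP64*, *MtnsLTP67*, *MtnsLTP71* and *MtnsLTP93* had counts in a single group only and reached the minimum through it. *MtnsLTP31*, *MtnsLTP68*, *MtnsLTP70*, *MtnsLTP76* and *MtnsLTP106* had counts in both groups but reached the minimum only through the group where they were higher. Members had to reach 10 counts in total to be tested, so these shares leave out the 79 members below that minimum. In bulk RNA of this kind, fewer cells that express a gene and less of its RNA per cell cannot be told apart.

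**Figure D1:**
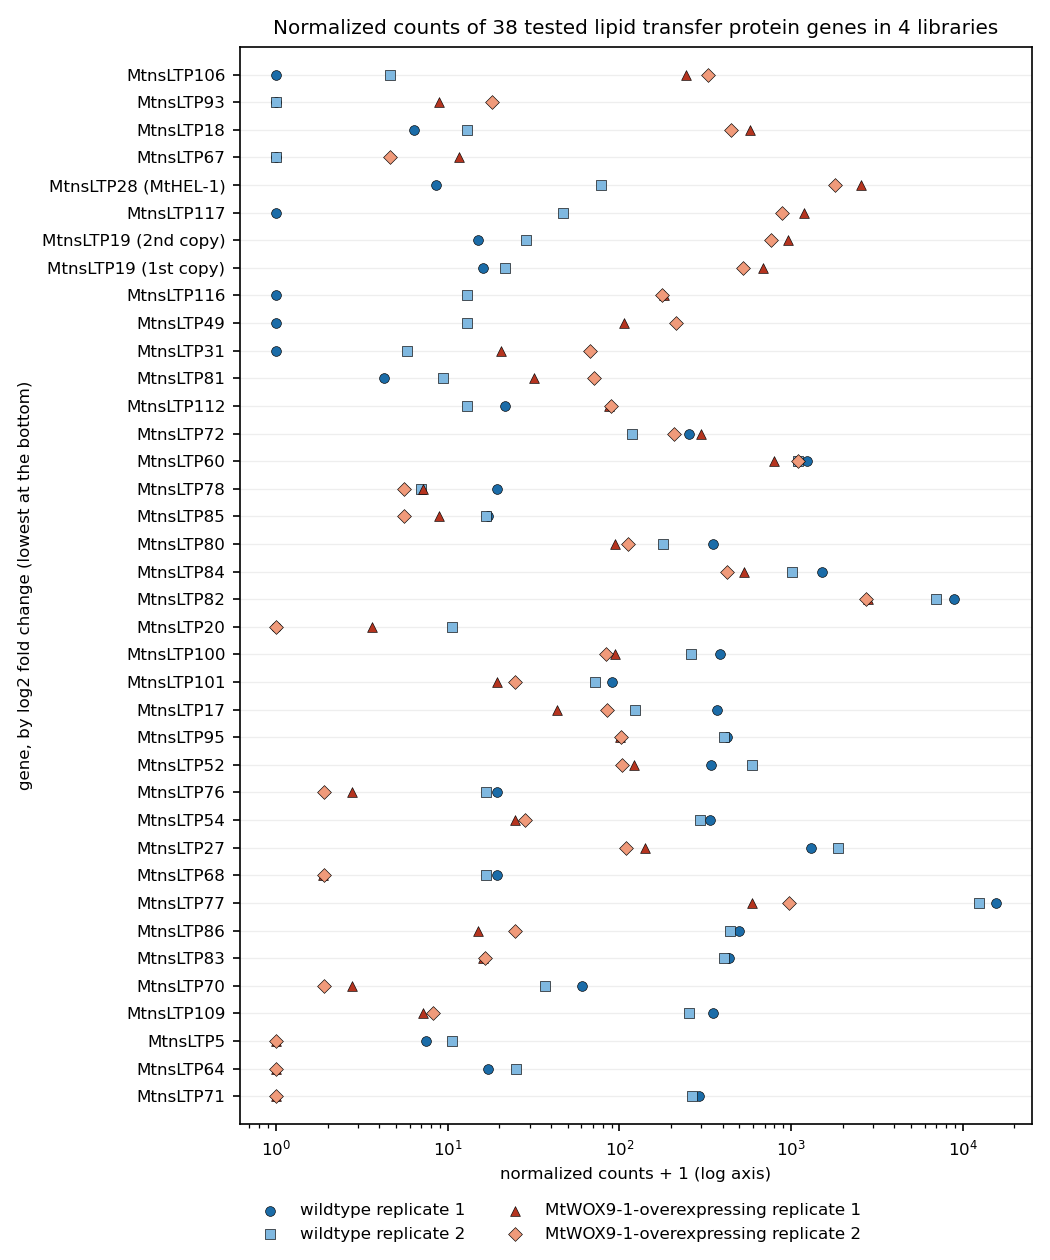
Normalized counts plus 1 (log axis) of the 38 tested lipid transfer protein genes, 1 row per gene and 1 point per library, ordered by log2 fold change. In the 13 rows at the top, the risers, both overexpressing libraries (red) lie to the right of both wildtype libraries (blue). In the 19 fallers the order is turned, with *MtnsLTP77* and *MtnsLTP82* reaching the highest values. The groups were likewise separate in 100% of all genes called in the whole table.

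Counts below are given in the order wildtype replicate 1, wildtype replicate 2, overexpressing replicate 1, overexpressing replicate 2. Normalized counts are counts scaled to the mean effective library size. Gene lengths were not used here, so the levels of different genes are not compared with each other. The deposited descriptions give nearly all members as non-specific lipid transfer proteins and no more, and no role beyond the family is given here where none is known with certainty.

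Among the genes that rose, the clearest group lies on chromosome 4 by its IDs. *MtHEL-1*;*MtnsLTP28* (MtrunA17Chr4g0012951) carries a pair of symbols, since its deposited description names it both a hevein-like protein of the PR4 class, a group of pathogenesis-related proteins, and a lipid transfer protein. It had 7, 64, 2917 and 1999 counts, which made it the riser with the most counts. This gave 42.3 ± 49.1 normalized counts in wildtype and 2189 ± 536 in overexpressing calli (SD, n = 2 each), with a log2 fold change of 5.73 (standard error, SE, 0.82, adjusted p = 0.0077, edgeR). Both overexpressing libraries stood far above both wildtype libraries, which themselves differed 10.2-fold in normalized counts. Leaving out wildtype replicate 1 gave a log2 fold change of 4.82, and leaving out replicate 2 gave 8.16.

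*MtnsLTP18* (MtrunA17Chr4g0012961), which directly follows *MtHEL-1*;*MtnsLTP28* in the order of the IDs, had 5, 10, 657 and 492 counts. This gave 8.71 ± 4.70 normalized counts in wildtype and 512 ± 94.1 in overexpressing calli (SD, n = 2 each), 59.0-fold higher (log2 fold change 5.88, SE 0.33, adjusted p = 0.0026, edgeR; 6.54 on the log2 scale without wildtype replicate 2). After 2 genes that are not members come 2 IDs that both carry the symbol *MtnsLTP19*. The first of them (MtrunA17Chr4g0012991) had 14, 17, 779 and 582 counts, and the second (MtrunA17Chr4g0013001) had 13, 23, 1086 and 839 counts. Their log2 fold changes were 5.09 (SE 0.25) and 5.37 (SE 0.31), with adjusted p-values of 0.0025 and 0.0026 in edgeR's test. The 2 intervening genes did not pass the test, with 0, 3, 5 and 6 counts and 5, 2, 4 and 4 counts, and nor did the gene that follows, with 294, 282, 302 and 283 counts. On the other side, *MtnsLTP22*, *MtnsLTP23* and *MtnsLTP24*, which directly precede *MtHEL-1*;*MtnsLTP28*, had 0 counts in all libraries. In the risers of this stretch, overexpressing replicate 1 was between 1.26 and 1.42 times overexpressing replicate 2 in normalized counts. The handling of reads that map to several places is not given in the sources used here, so the division of counts between the *MtnsLTP19* copies, and between any other near-identical members, is uncertain.

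**Figure D2:**
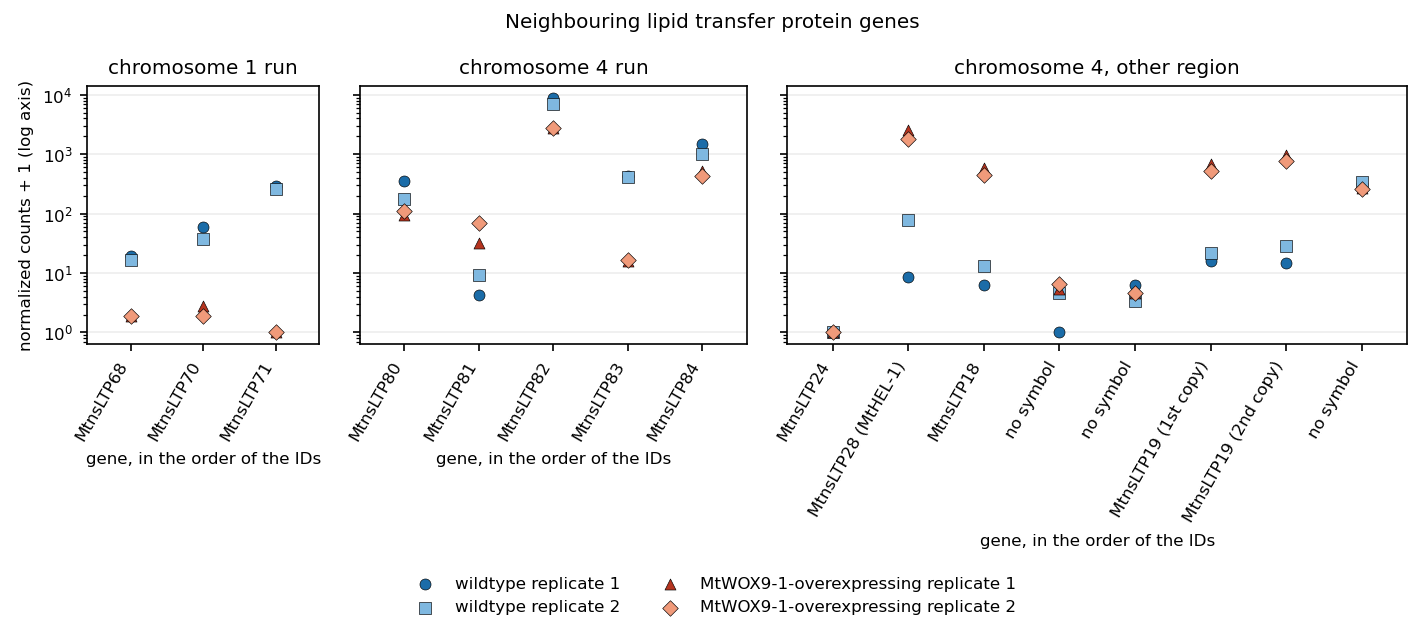
Normalized counts plus 1 (log axis) of members that stand next to each other in the order of the gene IDs, 1 point per library. All 3 genes of the chromosome 1 run shown are lower in the overexpressing libraries (red), *MtnsLTP81* alone is higher in the run from *MtnsLTP80* to *MtnsLTP84*, and in the other chromosome 4 region the 4 risers lie on either side of 2 genes without a symbol and with few counts.

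Other genes rose from wildtype levels at or near 0. *MtnsLTP106* (MtrunA17Chr5g0444811) had 0, 3, 276 and 363 counts, the largest rise among members with wildtype counts. The ratio of its counts, scaled for effective library size, was 167 (exact 95% counting interval 57.0 to 814; log2 fold change 7.28, adjusted p = 0.0027, edgeR). *MtnsLTP117* (MtrunA17Chr3g0122441) had 0, 38, 1351 and 979 counts, with a log2 fold change of 5.56 (SE 0.92, adjusted p = 0.011, edgeR). *MtnsLTP116* on the same chromosome (MtrunA17Chr3g0118471) had 0, 10, 206 and 194 counts, and its log2 fold change was 4.93 (SE 0.71, adjusted p = 0.0077, edgeR). In these genes wildtype replicate 1 held no read and all wildtype counts came from replicate 2, while the overexpressing libraries were close to each other. *MtnsLTP49* (MtrunA17Chr3g0100281) had 0, 10, 119 and 235 counts, a log2 fold change of 4.76 (SE 0.87, adjusted p = 0.014, edgeR; 4.16 without overexpressing replicate 2). DESeq2 did not call *MtnsLTP117*, *MtnsLTP116* and *MtnsLTP49* (adjusted p = 0.114, 0.065 and 0.091), although its log2 fold changes of 5.52, 4.92 and 4.75 were close to those of edgeR. Without wildtype replicate 1 the log2 fold changes from edgeR were 6.26 for *MtnsLTP106*, 4.50 for *MtnsLTP117*, 3.87 for *MtnsLTP116* and 3.70 for *MtnsLTP49*, all with an adjusted p under 0.05. Without wildtype replicate 2 no wildtype count was left for these 4 genes, so a fitted fold has no base there.

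The remaining risers were expressed at low counts. *MtnsLTP112* (MtrunA17Chr7g0251191) had 19, 10, 97 and 98 counts and rose 5.28-fold (log2 fold change 2.40, SE 0.28, adjusted p = 0.0049, edgeR), with overexpressing libraries that nearly coincided. *MtnsLTP31* on chromosome 7 had 0, 4, 22 and 73 counts (log2 fold change 4.15, SE 1.13, adjusted p = 0.040, edgeR). Its call was lost with a minimum of 1 count (adjusted p = 0.070, edgeR). The same happened without wildtype replicate 1 (log2 fold change 3.11) and without overexpressing replicate 2 (log2 fold change 3.0). *MtnsLTP93* had no wildtype count and 9 and 19 counts in overexpressing calli, at least 3.67-fold higher against the limit of 3 counts per library (adjusted p = 0.023, edgeR; 0.053 with a replicate block). *MtnsLTP67* had 0, 0, 12 and 4 counts, at least 2.07-fold higher (adjusted p = 0.047, edgeR). The adjusted p rose to 0.177 in DESeq2, and in edgeR to 0.080 with a minimum of 1 count and 0.075 with a replicate block. Its call was also lost without wildtype replicate 1, without wildtype replicate 2 and without overexpressing replicate 2. Without overexpressing replicate 1 it fell under the count minimum. Over the 10 risers with more than 3 counts in both groups, the fold ranged from 5.28 to 59.0.

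**Figure D3:**
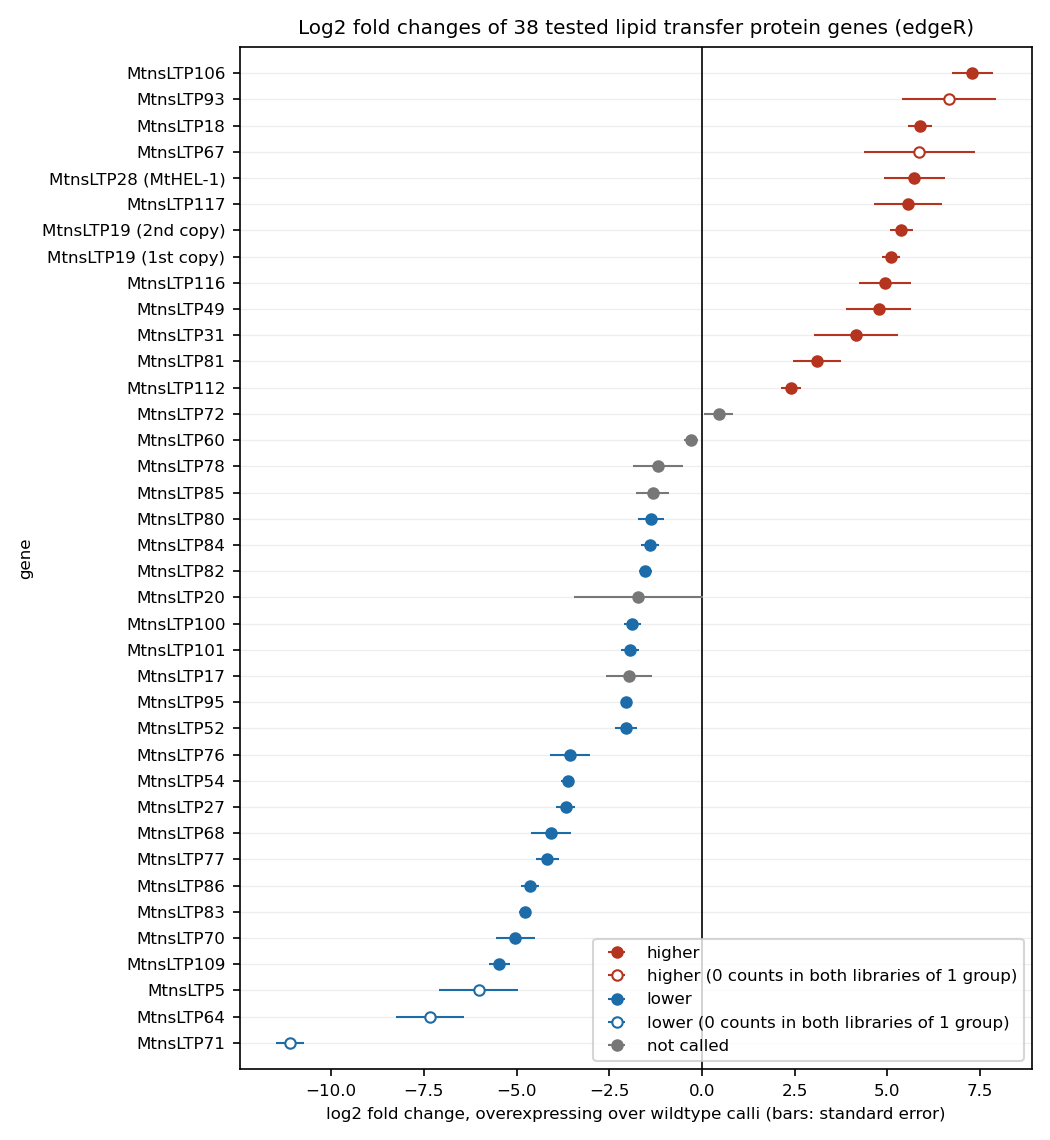
Log2 fold changes of the 38 tested genes from edgeR, overexpressing over wildtype calli, with bars of 1 standard error (SE). The 13 risers (red) lie between 2.40 and 7.28 and the 19 fallers (blue) begin at -1.37, and open circles mark genes with 0 counts in both libraries of a group, whose fitted value depends on the prior count and is no bound.

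Among the genes that fell, *MtnsLTP77* (MtrunA17Chr3g0120411, Medtr3g082100 in the older annotation) had the most counts of the whole family in wildtype calli. It had 14494, 10331, 669 and 1075 counts. This gave 14019 ± 2246 normalized counts in wildtype and 781 ± 272 in overexpressing calli (SD, n = 2 each), 17.9-fold lower (log2 fold change -4.17, SE 0.32, adjusted p = 0.0027, edgeR). Both wildtype libraries lay more than an order of magnitude above both overexpressing libraries. *MtnsLTP77* alone made up 47.4% and 45.7% of the family's reads in wildtype replicates 1 and 2, against 4.76% and 8.45% in overexpressing replicates 1 and 2.

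Among fallers with a mean of at least 50 normalized counts, *MtnsLTP71*, *MtnsLTP109*, *MtnsLTP83* and *MtnsLTP86* had the largest absolute log2 fold changes. *MtnsLTP71* (MtrunA17Chr1g0149491) had 268, 219, 0 and 0 counts, at least 103-fold lower against the limit of 3 counts per library (adjusted p = 0.0026, edgeR). *MtnsLTP109* (MtrunA17Chr6g0483691) had 324, 210, 7 and 8 counts, with a log2 fold change of -5.47 (SE 0.28, adjusted p = 0.0025, edgeR). Neither gene lost its call under any alternative setting tried. *MtnsLTP83* (MtrunA17Chr4g0056401) had 402, 336, 17 and 17 counts, and *MtnsLTP86* (MtrunA17Chr4g0064361) had 458, 366, 16 and 26 counts. Their log2 fold changes were -4.77 (SE 0.15) and -4.63 (SE 0.24), each with an adjusted p of 0.0025 in edgeR's test. In both, the replicates of a group lay close together compared with the gap between the groups.

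*MtnsLTP27* (MtrunA17Chr4g0013261), on the same chromosome as the stretch of risers, moved the other way, with 1219, 1551, 159 and 120 counts and a log2 fold change of -3.67 (SE 0.25, adjusted p = 0.0026, edgeR). *MtnsLTP54* (MtrunA17Chr7g0234401) had 313, 243, 27 and 30 counts, a log2 fold change of -3.62 (SE 0.17, adjusted p = 0.0025, edgeR). *MtnsLTP52* (MtrunA17Chr4g0034581) had 317, 490, 137 and 113 counts and a log2 fold change of -2.06 (SE 0.30, adjusted p = 0.0081, edgeR). *MtnsLTP27* and *MtnsLTP52* had more counts in wildtype replicate 2 than in replicate 1, unlike most fallers. Near the detection limit, *MtnsLTP64* (15, 20, 0 and 0 counts) was at least 7.51-fold lower (adjusted p = 0.0092, edgeR) and *MtnsLTP5* (6, 8, 0 and 0 counts) at least 3.0-fold lower. The call of *MtnsLTP5* (adjusted p = 0.019, edgeR) was lost in DESeq2 (adjusted p = 0.099), with a replicate block (0.064) and without overexpressing replicate 1 (0.053). *MtnsLTP76* had 17, 13, 2 and 1 counts, a ratio of 12.7 between wildtype and overexpressing calli (exact 95% counting interval 3.96 to 65.2). *MtnsLTP95*, *MtnsLTP100* and *MtnsLTP101* also fell, with log2 fold changes of -2.05, -1.88 and -1.93. Over the 13 fallers with more than 3 counts in both groups, the fold ranged from 2.59 to 44.2.

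Of the 6 tested genes that were not called, *MtnsLTP60* (MtrunA17Chr4g0056621) had the most counts, 1145, 909, 896 and 1216. This gave 1163 ± 98.4 normalized counts in wildtype and 945 ± 221 in overexpressing calli (SD, n = 2 each), and the groups overlapped (log2 fold change -0.30, SE 0.20, adjusted p = 0.28, edgeR). *MtnsLTP72* (MtrunA17Chr2g0290521) had 234, 97, 340 and 228 counts, also with overlap (log2 fold change 0.45, SE 0.40, adjusted p = 0.41, edgeR). Without wildtype replicate 1 *MtnsLTP72* was called higher (log2 fold change 1.11, adjusted p = 0.048). *MtnsLTP17* had 342, 102, 48 and 92 counts and a log2 fold change of -1.97 with a wide SE of 0.61 (adjusted p = 0.058, edgeR). DESeq2 called *MtnsLTP17* lower (adjusted p = 0.016), as did edgeR without wildtype replicate 2 (adjusted p = 0.0073). The other uncalled genes, *MtnsLTP20*, *MtnsLTP78* and *MtnsLTP85*, had between 11 and 42 counts in total, with log2 fold changes of -1.71 (SE 1.74), -1.18 (SE 0.67) and -1.33 (SE 0.44).

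Family members together took 0.504% (Wilson 95% interval 0.498 to 0.510) and 0.431% (0.426 to 0.437) of all counts in the wildtype libraries. In the overexpressing libraries they took 0.211% (0.207 to 0.214) and 0.199% (0.195 to 0.202). Without *MtnsLTP77* these shares were 0.265%, 0.234%, 0.201% and 0.182%. The gap between the groups was then much narrower, but the groups still did not overlap. What remained was 16075, 12265, 13389 and 11647 counts, of which *MtnsLTP82* held 8287, 5829, 3195 and 2998. The lack of overlap thus holds with *MtnsLTP82* included, and is not shown for the rest of the family. For 2 libraries against 2, an exact permutation test cannot give a p below 0.333, so the shares are given without a test.

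**Figure D4:**
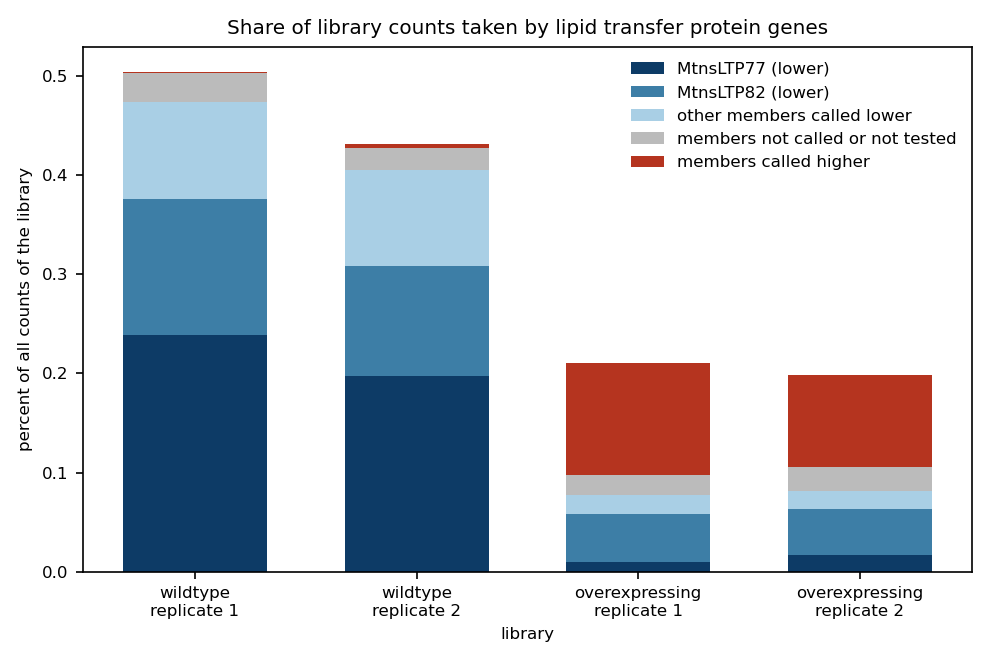
Percent of all counts of each library taken by lipid transfer protein genes, stacked by group of genes, 1 bar per library. The bars reach 0.504% and 0.431% in wildtype and 0.211% and 0.199% in overexpressing libraries. The groups of genes were formed by the calls in these same libraries, so how the parts of the bars change is fixed by that choice.

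Many members stand next to each other in the order of the IDs: 64 of the 117 have another member as direct neighbour, and 38 lie in 9 runs of 3 or more. Gene coordinates were not used, so positions and distances on the chromosome were not checked. In the run from *MtnsLTP68* to *MtnsLTP71* on chromosome 1 all 3 members fell. Besides *MtnsLTP71*, these were *MtnsLTP70* with 55, 30, 2 and 1 counts (adjusted p = 0.0042) and *MtnsLTP68* with 17, 13, 1 and 1 counts (adjusted p = 0.0063, edgeR). The ratio of wildtype to overexpressing counts was 36.1 for *MtnsLTP70* (exact 95% counting interval 11.9 to 178) and 19.1 for *MtnsLTP68* (4.84 to 165). The overexpressing libraries held at most 2 counts of any of them.

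The run from *MtnsLTP80* to *MtnsLTP84* on chromosome 4 was mixed. *MtnsLTP82* (MtrunA17Chr4g0056391) had 8287, 5829, 3195 and 2998 counts, or 7969 ± 1351 and 2764 ± 69.9 normalized counts (SD, n = 2 each), with a log2 fold change of -1.53 (SE 0.17, adjusted p = 0.0046, edgeR). *MtnsLTP84* had 1398, 840, 600 and 469 counts (log2 fold change -1.40, SE 0.24, adjusted p = 0.012, edgeR; 0.052 without overexpressing replicate 2). *MtnsLTP80* had 326, 148, 106 and 123 counts and a log2 fold change of -1.37 (SE 0.35, adjusted p = 0.034, edgeR). It no longer passed with a minimum of 1 count or with a replicate block (adjusted p = 0.071 for the block, edgeR). Its call was also lost without overexpressing replicate 1 (log2 fold change -1.25) and without overexpressing replicate 2 (-1.51). *MtnsLTP83*, between *MtnsLTP82* and *MtnsLTP84*, fell by more (values above), and *MtnsLTP81* (MtrunA17Chr4g0056381), between *MtnsLTP80* and *MtnsLTP82*, rose. It had 3, 7, 35 and 77 counts, with a log2 fold change of 3.11 (SE 0.65, adjusted p = 0.020, edgeR), and the call was lost without wildtype replicate 1 (log2 fold change 2.56, adjusted p = 0.059) and without overexpressing replicate 2 (log2 fold change 2.40, adjusted p = 0.058), while leaving out wildtype replicate 2 gave 3.91.

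In the other runs most members had 0 counts. The 4 genes from *MtnsLTP11* to *MtnsLTP13* on chromosome 3, the 3 from *MtnsLTP61* to *MtnsLTP63* on chromosome 5 and the 6 from *MtnsLTP36* to *MtnsLTP41* on chromosome 7 had 0 counts in all libraries. In the run from *MtnsLTP96* to *MtnsLTP58* on chromosome 1 only *MtnsLTP57* was detected, with 5 counts in total. *MtnsLTP31* was the only tested gene of the 5 from *MtnsLTP30* to *MtnsLTP34*, and *MtnsLTP52* the only one of its run of 3, where *MtnsLTP51* and *MtnsLTP131* had 0 counts. By chromosome, the 28 members on chromosome 4 included 15 of the 38 tested genes. Of these 5 rose and 7 fell, where 20.3% and 18.9% of all genes tested did. Of the 25 members on chromosome 7, 18 had 0 counts throughout and 4 were tested. On chromosome 5, 9 of the 12 members had 0 counts, where 39.8% of all genes in the count table did. Shares over all genes of each chromosome are not given here.

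The wildtype libraries also differed from each other in genes that differed between the groups, in the whole table as well as among the members. Of the 11 risers with any wildtype count, 10 had a higher normalized count in wildtype replicate 2 than in replicate 1 (90.9%), against 75.9% of all risers with wildtype counts in the whole table. Of the 7 risers with 0 counts in wildtype replicate 1, 5 had counts in replicate 2. *MtnsLTP112* was the exception, with 19 counts in replicate 1 and 10 in replicate 2. Wildtype replicate 2 lay below both overexpressing libraries in all 13 risers, as it did in every gene called higher in the whole table. The gap was small in *MtnsLTP67*, with 0 counts against 4 in overexpressing replicate 2. Of the 19 fallers, 15 were lower in wildtype replicate 2 than in replicate 1 (78.9%, against 69.7% of all genes that fell). *MtWOX9-1* itself had 18 counts in wildtype replicate 2 and 2 in replicate 1. In wildtype replicate 2, the normalized count of *MtWOX9-1* was 0.317% of its overexpressing mean, whereas those of the 11 risers with wildtype counts were between 1.26% and 16.8% of theirs. Carry-over of overexpressing material into wildtype replicate 2 was not tested. The part of the difference between the wildtype libraries in the results was not tested either; without wildtype replicate 2, edgeR called 31 members, 30 of them among the 32 called with all libraries.

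**Figure D5:**
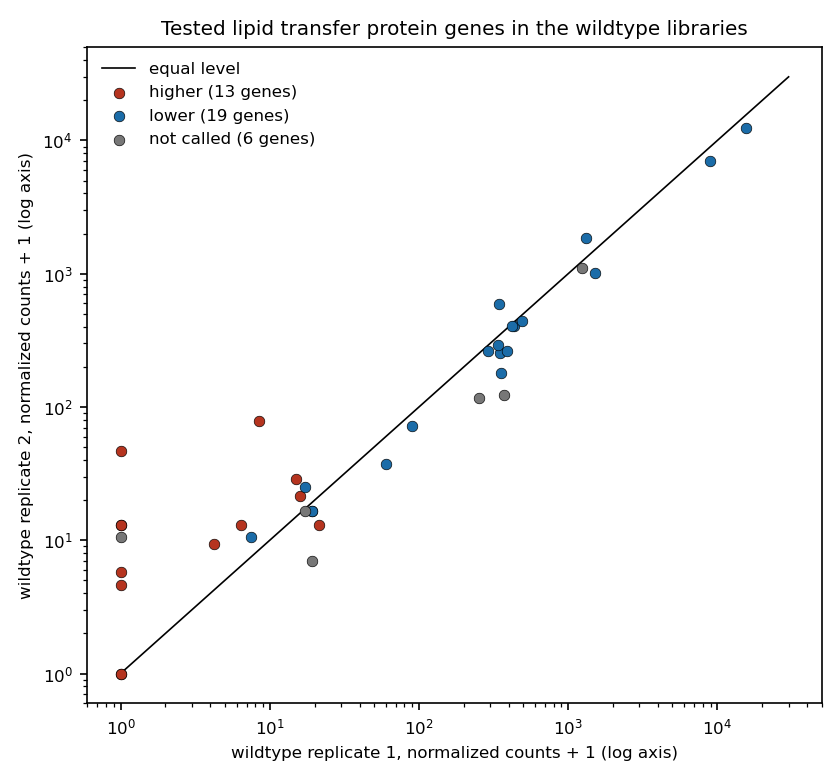
Normalized counts plus 1 of the 38 tested members in wildtype replicate 1 (x axis) and wildtype replicate 2 (y axis), both on log axes, with the line of equal level. Of the 13 genes that rose in overexpressing calli (red), 10 lie above the line, 2 lie at 0 counts in both libraries and 1 lies below, while 15 of the 19 fallers (blue) lie below it. In the whole table, 75.9% of risers with wildtype counts were higher in wildtype replicate 2, and 69.7% of fallers were lower in it.

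Other genes of extracellular lipid layers, taken by keywords in the deposited symbols and descriptions, gave 11 genes, all described as suberin biosynthesis genes. There were no reads of 4 of them in any library, and 5 reached the minimum for the test. Of the 5, 2 rose and 3 fell, where 20.3% and 18.9% of all genes tested did, and the median log2 fold change of -2.09 is that of the middle gene, *MtCER1-2* (0.04 over all genes tested). *MtKCS2*, a ketoacyl-CoA synthase of the kind that elongates fatty acids to very long chains, had 3, 40, 1205 and 723 counts and rose 34.4-fold (log2 fold change 5.10, adjusted p = 0.0094, edgeR). Its log2 fold change became 4.15 when wildtype replicate 1 was left out and 8.00 when wildtype replicate 2 was. Wildtype replicate 2 was above wildtype replicate 1 in normalized counts. The same held in most lipid transfer protein genes that rose and in 75.9% of all risers with wildtype counts. *MtCER1-2*, named after an Arabidopsis gene of wax alkane formation, had 1155, 914, 369 and 249 counts and fell 4.26-fold (adjusted p = 0.0039, edgeR). *MtGPAT-1* (MtrunA17Chr7g0241831), a glycerol-3-phosphate acyltransferase of the kind that makes precursors of cutin and suberin, had 300, 240, 84 and 42 counts and fell 5.45-fold (adjusted p = 0.0058, edgeR). These genes, like the lipid transfer protein genes, thus moved in both directions. The remaining ones were *MtCER3*, which fell 7.27-fold (log2 fold change -2.86, adjusted p = 0.0075, edgeR), and *MtKCS1*, which rose 6.15-fold from 1 and 4 counts (adjusted p = 0.035, edgeR). The log2 fold change of *MtCER3* was -2.38 without overexpressing replicate 1 and -3.57 without overexpressing replicate 2. *MtKCS1* was not called by DESeq2 (adjusted p = 0.129). Its call was also lost without wildtype replicate 1, without overexpressing replicate 1 and without overexpressing replicate 2.

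Seed storage and late embryogenesis genes, listed here under seed or embryo maturation, differed between the same libraries. Of 5 such genes found by keyword, 4 rose and *MtLEA* fell, where 20.3% and 18.9% of all genes tested did. The storage protein gene *MtleguminB* had 13, 55, 785 and 2146 counts and was 33.4-fold higher in overexpressing calli (log2 fold change 5.06, adjusted p = 0.011, edgeR). Its log2 fold change became 4.13 when overexpressing replicate 2 was left out, 4.31 when wildtype replicate 1 was, and 6.55 when wildtype replicate 2 was. *MtPM25* and *MtLEA4-5* had 0 counts in both wildtype libraries. *Mt2SA3*, a 2S albumin gene, had 0, 1, 14 and 51 counts, and its call (adjusted p = 0.026, edgeR) was lost without wildtype replicate 1 (0.078) and without overexpressing replicate 2 (0.059). The summed normalized counts of the list were 298 and 306 in wildtype and 758 and 2091 in overexpressing calli. Most of the wildtype sums came from *MtLEA* (284 and 238) and most of the overexpressing sums from *MtleguminB* (691 and 1943), which was higher in replicate 2, while *MtPM25* had 20.3 and 21.7 normalized counts in the overexpressing libraries. The 4 risers of the *MtnsLTP28* to *MtnsLTP19* stretch were lower in replicate 2 than in replicate 1. Of the other risers, *MtnsLTP31*, *MtnsLTP49*, *MtnsLTP81*, *MtnsLTP93*, *MtnsLTP106* and *MtnsLTP112* had the higher normalized count in overexpressing replicate 2. In *MtnsLTP67*, *MtnsLTP116* and *MtnsLTP117* it was lower there than in overexpressing replicate 1. The overexpressing libraries nearly coincided in *MtnsLTP112* (85.4 and 88.7) and *MtnsLTP116* (181 and 176). The part of embryo cells in the lipid transfer protein results was not tested. Keywords for epidermis, leaf mesophyll and vascular tissue matched no gene of the deposited annotation, so the callus label could not be checked against markers.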

How the data were processed

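The counts deposited by the authors are whole numbers of reads per gene in 4 libraries, not normalized. They also deposited a table of results with gene symbols (3772 genes) and descriptions (3784 genes). From the latter the ACRONYM, description and older ID columns were used. Its 4 columns of normalized values per sample and its fold changes and p-values were not used. The submitters' processing notes name Trimmomatic, HISAT2, StringTie and DESeq, with no role or version. The gene IDs are those of the MtrunA17r5.0-ANR annotation. Strand and the treatment of multiply mapped reads are not given in the sources used here.

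All 24630 genes that reached a total of 10 counts entered the fit, made with edgeR 4.0.16 (R 4.3.3), with TMM scaling (factors 0.937, 0.970, 1.04 and 1.06), the quasi-likelihood test on condition alone, and Benjamini-Hochberg adjustment over these genes. The threshold was 0.05. The common dispersion was 0.0284. A fold against a group with 0 counts in both libraries is a lower bound against 3 counts per library, and a group with 1 to 3 counts in total gives a ratio with an exact counting interval. Reads carry no molecular identifiers here, so intervals and limits cover counting error only.

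The alternatives were DESeq2 1.42.0, its size factors in edgeR, library size only, a minimum of 1 count, a replicate block, a prior count of 2, a stricter adjusted p (under 0.01), a minimum absolute log2 fold change of 1, symbols alone as the rule, and each library left out in turn. Where a group is left with 1 library, that library is assumed to vary like the others.

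Values per library were given for the 8 rising and 8 falling members of largest absolute log2 fold change among called members with a mean of at least 50 normalized counts, the 5 members with the highest mean, the 4 with the smallest absolute log2 fold change at a mean of at least 100, and members in runs of 3 or more. The keyword list of extracellular lipid genes named up to 3 risers and 3 fallers with a mean of at least 100. Other named genes were chosen after their values were seen. The members, lists and rule were chosen with earlier results of these data known. None of the members matched the RefSeq gene table used here, and no sequences or gene coordinates are given.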

Additional observations from a re-analysis of the deposited data

How the results depend on the processing

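The 38 tested members and the list genes kept the sign of their log2 fold change under each alternative that gave a value (*MtnsLTP5*, *MtnsLTP20*, *MtnsLTP67* and *MtnsLTP93* fell under the count minimum in 1 or 2 of the fits with a library left out). Of the 32 members called, 27 were also called by DESeq2 (28 called), 29 with a minimum of 1 count, 28 with a replicate block, and 32 with DESeq2's size factors in edgeR, with library size only and with a prior count of 2. Leaving out each library in turn gave 26 to 31 called members. At an adjusted p under 0.01, 7 members were higher and 16 lower, against 13 and 19. Library size only moved the median log2 fold change of all genes from 0.04 to 0.18, and no member changed its call. Over all genes, DESeq2 called 3105 lower, against 4659 with edgeR, and the replicate block called 3261 higher, against 4989. Leaving out each library in turn gave 5553 to 8323 genes called, 2650 to 4465 higher and 2903 to 3858 lower. More genes were lower than higher without overexpressing replicate 1 (2903 against 2650) and without overexpressing replicate 2 (3360 against 3284), the reverse of the fit with all libraries. Of the extracellular lipid genes, 1 in place of 2 was higher with DESeq2, with a minimum of 1 count and with the replicate block, and 1 to 2 with each library left out. Deviations from the group means of same-numbered libraries had a correlation of -0.02 over 24630 genes. A single correlation over all genes, with 2 libraries per group, cannot decide whether same-numbered libraries shared a plant, day or batch. The calls of *MtnsLTP5*, *MtnsLTP31*, *MtnsLTP49*, *MtnsLTP67*, *MtnsLTP80*, *MtnsLTP81*, *MtnsLTP84*, *MtnsLTP93*, *MtnsLTP116* and *MtnsLTP117* were lost under at least 1 alternative, and the cause was not tested.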
